A study of Rattus norvegicus with 4 samples.

Results

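The glycolysis and hypoxia response genes were followed across 4 microarrays of rat hippocampal neural progenitor cells. They are a list of 44 genes, namely the enzymes of glycolysis, the carriers and regulators of the pathway, and genes known to respond to low oxygen. They were chosen by gene symbol, with earlier results of these data known. Of these, 43 had at least 1 probe set of their own among the 14218 genes on the array, and 37 were above the limit of specific signal on at least 1 array. The exception without a probe set was Pkm (pyruvate kinase), whose only probe set also matches a pseudogene, and it was not analysed here. Slc16a3, Pfkfb2, Pdk4, Egln3, P4ha2 and Car9 stayed below the limit on all 4 arrays.

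The cells came from Fisher 344 rats and were grown on polyornithine and laminin. Each of the 4 groups was a single array, and the age of the animals and the pooling of cultures are not given in the sources used here. One group received 5 uM and another 1.7 uM of KHS101, a compound known for driving neural progenitors toward neurons. The positive control received retinoic acid at 1 uM plus forskolin, which activates adenylyl cyclase, at a concentration that the labels do not state; the series design names only the retinoic acid. The negative control received the solvent DMSO, at 0.1% in a protocol written for several experiments. Per that protocol, all cells were seeded at 1000 per cm2 and treated in N2 medium for 4 days, and the labels name no low-oxygen treatment. The growth factor bFGF is recorded at 20 ng per mL for all 4 groups. With 1 array per group there is no replicate check, no test could be run and no p-value is given. Precision is limited by there being 1 array for each group.

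Values are log2 expression levels as deposited. Those under a floor of log2 = 5 were set to the floor, since the lowest values of this kind of array carry no specific signal. A comparison counted a gene as measured when either of its 2 arrays exceeded the floor, and called it when the arrays differed 2-fold or more. With 1 array at the floor the fold is a lower bound, written "at least". Between 8390 and 8472 genes and between 34 and 36 of the listed genes were above the floor on each array. Of the 6 progenitor markers with a probe set, 5 were above the floor on every array (Nes, Sox2, Vim, Fabp7 and Notch1) and Pax6 was not. Fabp7 had 12.48 and 13.39 in the 5 uM and 1.7 uM KHS101 arrays against 14.59 in DMSO and 15.09 in the retinoic acid array, and Notch1 had 8.84, 9.45, 10.29 and 10.44 in the same order. In that order too, Nes had 11.89, 11.97, 11.36 and 10.67, Sox2 13.57, 13.82, 14.01 and 13.81, and Vim 14.13, 14.55, 14.53 and 13.42. The oligodendrocyte lineage markers Olig2, Sox10, Pdgfra and Mbp were also above it on every array and Cspg4 on none, with a median log2 value over these 5 genes of 12.07 in DMSO, 12.94 in the retinoic acid array, and 10.54 and 9.96 with KHS101 at 1.7 uM and 5 uM. The endothelial markers Pecam1, Tek and Cldn5 and the fibroblast markers Col1a1, Col1a2, Dcn and Lum were at the floor on all arrays. Of the astrocyte markers, S100b (13.15 to 14.21, highest in the retinoic acid array) and Slc1a3 (9.0 to 9.74) were above it on every array, and Gfap, Aqp4 and Aldh1l1 were at the floor on all. The microglial markers Aif1, Cx3cr1, Itgam and Csf1r were at the floor as well, while P2ry12 was above it in DMSO and with retinoic acid and forskolin.

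Glycolysis splits glucose into pyruvate, which is either reduced to lactate and exported or oxidised in the mitochondria. Its speed is set less by the abundant enzymes of the chain than by a few control points: glucose entry, hexokinase, phosphofructokinase with the sugar phosphate made by the PFKFB enzymes, and the PDK kinases that close the entrance to mitochondrial oxidation. In low oxygen the transcription factors HIF-1 alpha (Hif1a) and HIF-2 alpha (Epas1) escape hydroxylation by the EGLN enzymes, pair with ARNT and switch on glycolytic genes and others such as Vegfa. Several of these genes also answer to other stresses, Ddit4 and Vegfa to the transcription factor ATF4 among them. Neural progenitors in culture depend strongly on glycolysis.

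HIF dimers bind a short core in the promoters of their targets, which is ACGTG or, in other targets, GCGTG. RefSeq promoters of assembly GRCr8, from 250 bases before to 50 after the start of a gene, were given for 40 of the 44 listed genes (all but Slc2a3, Pgk1, Bnip3l and Txnip), 45 promoters in all. Both hypoxia cores were searched on both strands. So was the E-box CACGTG, bound by MYC family proteins and the glucose sensor MLXIP, which contains the first hypoxia core on each strand. The core of the element bound by ATF4 with C/EBP proteins was searched as TGATGNAA. That of the antioxidant element, bound by NRF2, was searched as TGACNNNGC. The following 6 promoters are shown, with matches to either hypoxia core or to the ATF4 core, on either strand, in capitals, because 4 belong to the genes that differed most upward at both KHS101 concentrations among those with a promoter, Pdk2 to a gene with opposite differences in KHS101 and in retinoic acid with forskolin, and Ldha to an enzyme of the chain that hardly differed. They were picked after the values were seen.
Pfkfb3, chr17:71944683-71944982, + strand: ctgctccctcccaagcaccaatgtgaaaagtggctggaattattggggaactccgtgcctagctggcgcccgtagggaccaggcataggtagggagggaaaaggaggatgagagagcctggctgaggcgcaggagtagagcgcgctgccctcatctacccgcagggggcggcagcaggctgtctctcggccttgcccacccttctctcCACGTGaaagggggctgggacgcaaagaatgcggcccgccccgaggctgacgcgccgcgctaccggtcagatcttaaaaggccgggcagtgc
Vegfa, chr9:22452604-22452903, + strand: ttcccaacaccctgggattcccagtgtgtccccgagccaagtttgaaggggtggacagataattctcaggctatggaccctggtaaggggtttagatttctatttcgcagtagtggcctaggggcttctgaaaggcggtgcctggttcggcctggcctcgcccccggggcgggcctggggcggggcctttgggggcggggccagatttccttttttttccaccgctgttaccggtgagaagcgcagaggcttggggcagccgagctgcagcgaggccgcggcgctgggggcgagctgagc
Ddit4, chr20:28436988-28437287, - strand: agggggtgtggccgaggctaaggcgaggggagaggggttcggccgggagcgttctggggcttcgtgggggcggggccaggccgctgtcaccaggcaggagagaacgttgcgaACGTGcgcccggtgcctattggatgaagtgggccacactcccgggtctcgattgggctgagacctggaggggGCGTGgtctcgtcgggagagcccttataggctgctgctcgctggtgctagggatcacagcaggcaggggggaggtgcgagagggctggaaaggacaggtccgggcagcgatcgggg
Gys1, chr1:105051666-105051965, + strand: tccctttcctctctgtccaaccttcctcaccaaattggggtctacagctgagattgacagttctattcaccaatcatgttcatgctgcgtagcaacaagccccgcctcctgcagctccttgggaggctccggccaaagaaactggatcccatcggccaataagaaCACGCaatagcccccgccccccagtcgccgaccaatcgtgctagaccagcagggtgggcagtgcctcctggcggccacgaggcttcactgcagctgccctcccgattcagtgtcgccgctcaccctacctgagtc
Pdk2, chr10:80483863-80484162, - strand: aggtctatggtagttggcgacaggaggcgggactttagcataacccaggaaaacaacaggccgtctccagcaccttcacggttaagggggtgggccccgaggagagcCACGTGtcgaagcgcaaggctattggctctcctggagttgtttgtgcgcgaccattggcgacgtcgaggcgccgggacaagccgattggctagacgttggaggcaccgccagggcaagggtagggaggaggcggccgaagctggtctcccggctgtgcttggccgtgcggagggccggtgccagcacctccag
Ldha, chr1:106507842-106508141, + strand: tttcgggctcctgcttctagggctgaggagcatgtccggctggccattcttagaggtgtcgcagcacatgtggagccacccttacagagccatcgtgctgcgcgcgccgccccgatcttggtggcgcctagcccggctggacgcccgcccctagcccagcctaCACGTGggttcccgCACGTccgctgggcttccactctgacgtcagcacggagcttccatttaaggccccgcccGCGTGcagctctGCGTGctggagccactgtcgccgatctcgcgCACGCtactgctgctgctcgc

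Pfkfb3 and Pdk2 each have an E-box, counted as 2 matches of the first hypoxia core. Ddit4 has 1 match of each hypoxia core, Gys1 has 1 of the second, and neither of the 2 Vegfa promoters in the table holds any of the capitalised motifs. The Ldha promoter holds 3 matches of each, an E-box among them. Epas1, the other gene called in opposite directions, has a promoter with none of the searched motifs. Among other nearly level enzymes, the Tpi1 promoter holds none, and those of Gapdh, Pgam1 and Eno1 hold at least 1 of the hypoxia cores. Over all 45 promoters of the listed genes, 51.1% held the first hypoxia core against 19.3% of 33469 RefSeq promoters, and 42.2% held the second against 29.7%. The E-box was found in 15.6% against 6.42%, the ATF4 core in 2.22% (Pfkfb2 alone) against 3.98%, and the antioxidant core in 11.1% against 12.1%. Within the list the share with the first hypoxia core was 44.4% of 18 promoters for the enzyme chain and 55.6% of 27 for the other genes. The list was chosen to hold genes known to respond to low oxygen, and the RefSeq promoters beside it were not matched for base composition. Such matches describe these windows only, and a window without a match says nothing of the bases outside it.

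With KHS101 at 5 uM against DMSO, 8 of 37 measured genes of the list were higher and 4 were lower, while 25 were neither. This is 21.6% higher and 10.8% lower, against 6.16% higher and 8.10% lower over 8544 measured genes. Choosing the list with earlier results of these data known can raise its shares by itself. Genes outside the enzyme chain carried most of these calls, with 7 higher and 4 lower of 23 (30.4% and 17.4%), whereas the chain had 1 higher and 0 lower of 14 (7.14% and 0%). The largest differences were those of Pfkfb3 and Vegfa upward and of Txnip and Pdk2 downward. In bulk RNA fewer cells of a type and less RNA per cell cannot be told apart, and markers of cell types moved with KHS101: at 5 uM 3 oligodendrocyte lineage markers, 2 progenitor markers (Fabp7 and Notch1) and the microglial marker P2ry12 were lower than in DMSO, and at 1.7 uM 1 of each. The progenitor markers Nes, Sox2 and Vim were not called with KHS101. With retinoic acid and forskolin Mbp, S100b and Tubb3 were higher than in DMSO and Vim was lower, each past 2-fold. The part of these markers in the differences of the listed genes was not tested. At 1.7 uM, 6 of 35 were higher and 1 was lower (17.1% and 2.86%, against 4.36% and 4.27% of 8534 genes). Retinoic acid with forskolin had 4 of 36 higher and 1 lower (11.1% and 2.78%, against 4.33% and 3.15% of 8536 genes).

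**Figure D1:**
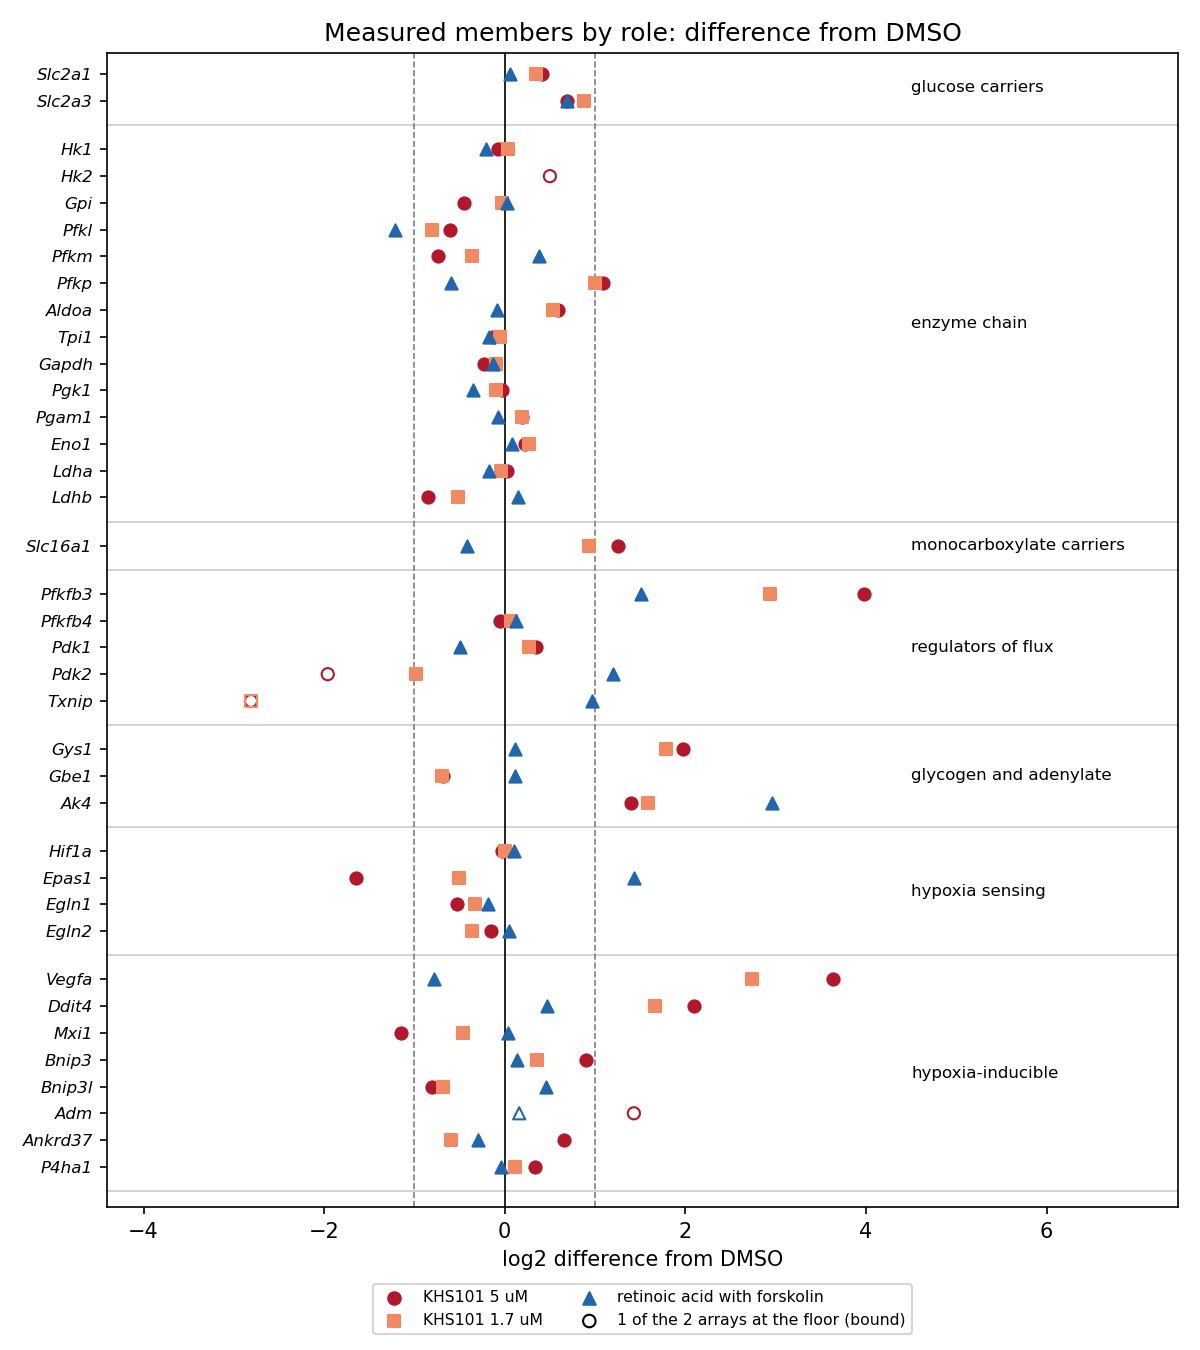
Log2 difference from DMSO (horizontal axis) of each measured gene of the list, grouped by role, for KHS101 at 5 uM (circles), KHS101 at 1.7 uM (squares) and retinoic acid with forskolin (triangles). Dashed lines mark 2-fold, open symbols are lower bounds, and each point is 1 array against the same DMSO array; most enzymes of the chain lie between the dashed lines, and Pfkfb3 and Vegfa lie furthest to the right.

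The enzyme chain as a whole stayed close to DMSO. Its median log2 difference was -0.05 with KHS101 at 5 uM (14 genes), -0.04 at 1.7 uM (13 genes) and -0.13 with retinoic acid and forskolin (13 genes), beside 0.00, -0.01 and -0.03 over all measured genes. The single differences spanned -0.85 to 1.09, -0.80 to 1.00 and -1.21 to 0.38. The size of the difference, taken without its sign, had a median of 0.34, 0.19 and 0.17 for the chain and of 0.36, 0.27 and 0.29 for all genes. By this measure the chain lay at or below the typical gene of these arrays.

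In the lower part of the chain, Gapdh, Pgk1, Tpi1, Pgam1, Eno1 and Ldha were nearly level across the arrays, while Aldoa and Ldhb, described with the isoenzymes, were less so. Gapdh, the dehydrogenase that makes the pathway's NADH and a common reference gene, had log2 values of 14.48, 14.62, 14.58 and 14.71 in the 5 uM and 1.7 uM KHS101 arrays, the retinoic acid array and the DMSO array, the order used throughout. It was measured by control probe sets alone. Pgk1, the first ATP-forming kinase of the chain, had 14.47, 14.40, 14.14 and 14.50. All 4 arrays lay within a narrow band for both genes. Tpi1 (triose phosphate isomerase) had 13.21, 13.29, 13.17 and 13.34, and Pgam1 (phosphoglycerate mutase) 13.81, 13.80, 13.55 and 13.61. Ldha, the lactate dehydrogenase subunit of glycolytic tissue and a textbook HIF target, had 13.88, 13.80, 13.67 and 13.84. None of these genes differed from DMSO by more than 0.35 in log2 on the probe set used. The other Pgk1 probe set above the floor had 13.10, 12.93, 12.55 and 13.09, a difference of -0.54 with retinoic acid and forskolin. Eno1 (enolase) had 13.96, 14.01, 13.82 and 13.74.

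At the top of the chain, Hk1, the hexokinase of brain, had 10.26, 10.36, 10.12 and 10.33. Its control probe sets gave a 3' minus 5' difference of 0.96, 0.80, 0.66 and 0.69 in the usual order, largest in the KHS101 5 uM array, whereas those of Gapdh gave values between -0.16 and -0.11. Hk2, the inducible hexokinase, was above the floor in 1 array: its deposited values were 5.50, 4.74, 2.25 and 3.28, so it was at least 1.42-fold higher with KHS101 at 5 uM and was not called. Gpi (phosphoglucose isomerase) had 11.80, 12.22, 12.28 and 12.25, lowest with KHS101 at 5 uM.

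Phosphofructokinase, the committed step, was where the chain's isoenzymes parted. Pfkp, the platelet-type subunit, had 12.35, 12.27, 10.68 and 11.27. It was 2.13-fold higher at 5 uM and 2.01-fold higher at 1.7 uM than in DMSO, and 1.5-fold lower with retinoic acid and forskolin. Both KHS101 arrays were above DMSO and the retinoic acid array below it. Pfkm, the muscle-type subunit, had 10.18, 10.56, 11.30 and 10.92, the opposite order. It was 1.67-fold and 1.28-fold lower with KHS101 and 1.30-fold higher with retinoic acid and forskolin, and its other probe set above the floor gave 9.95, 10.36, 10.99 and 10.64. Pfkl, the liver-type subunit, had 8.52, 8.32, 7.92 and 9.12, and was lower than DMSO on each of the other arrays, by 1.52-fold, 1.74-fold and 2.31-fold, the last being the chain's single call in that comparison.

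Isoenzymes of other steps also differed from each other. Aldoa had 13.29, 13.23, 12.61 and 12.70, or 1.5-fold and 1.45-fold higher with KHS101. Aldoc, the brain and astrocyte aldolase, taken from a wider list of pathway genes, had 10.81, 11.95, 13.42 and 12.28. It was thus 2.77-fold lower with KHS101 at 5 uM, 1.26-fold lower at 1.7 uM and 2.20-fold higher with retinoic acid and forskolin. Ldhb, the subunit of oxidative tissue, had 12.18, 12.51, 13.18 and 13.03, 1.80-fold and 1.43-fold lower with KHS101. Eno2, the enolase of neurons, had 10.25, 10.23, 8.68 and 8.45, which was 3.48-fold and 3.44-fold higher with KHS101 and 1.17-fold higher with retinoic acid and forskolin. The neuronal markers Tubb3 and Map2 were above the floor on every array, at 9.48, 9.59, 9.98 and 8.85 and at 12.60, 12.67, 12.79 and 12.46, while Dcx, Rbfox3 and Stmn2 were at the floor; their part in the Eno2 difference was not tested. In each of the pairs Aldoa with Aldoc and Pfkp with Pfkm, KHS101 at both concentrations had the first higher and the second lower than DMSO, and retinoic acid with forskolin had the signs turned. For Aldoa the turned difference was only -0.09 in log2, below the median standard deviation of 0.14 between probe sets of a gene. Other isoenzymes did not pair this way: Eno1 and Eno2 were above DMSO on every treated array, and Pfkl was below it on each.

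**Figure D2:**
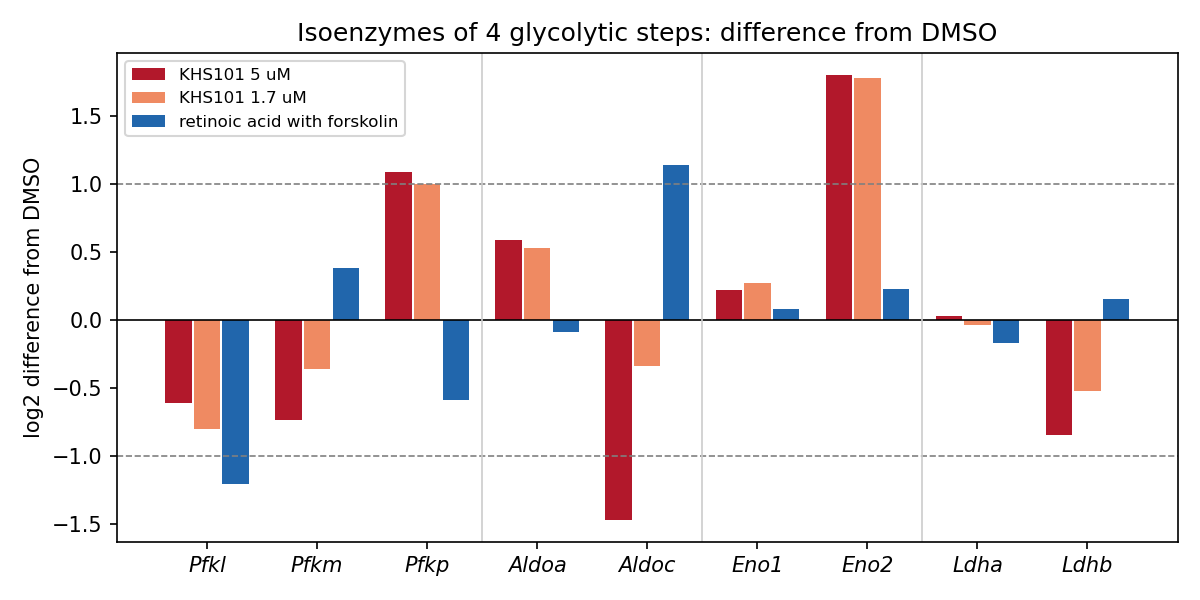
Bars give the log2 difference from DMSO (vertical axis) of the isoenzymes of phosphofructokinase, aldolase, enolase and lactate dehydrogenase for the 3 treatments, 1 array each, with dashed lines at 2-fold. Pfkp and Eno2 are above 0 at both KHS101 concentrations, Pfkm, Aldoc and Ldhb below 0 there and above 0 with retinoic acid and forskolin.

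The regulators of flux, in contrast to the chain, differed in both directions. Of 7 listed, 5 were measured; their median signed difference with KHS101 at 5 uM was -0.05, equal to that of the chain, but the median size of their differences was 1.96 against 0.34 for the chain and 0.36 for all genes. At 1.7 uM these sizes were 0.98 and 0.19, and with retinoic acid and forskolin 0.97 and 0.17. Bounds enter these medians at their floor value, and 1.96 is the bound of Pdk2 itself. With a floor of log2 = 6 the median size at 5 uM was 0.96 for the regulators and 0.23 for the chain. Averaging all probe sets of a gene, floored ones included, gave 0.98 and 0.34 at 5 uM. It gave 0.49 and 0.19 at 1.7 uM, and 0.50 and 0.15 with retinoic acid and forskolin. The medians of size rest on few genes: over all 7 regulators without a floor they were 0.35, 0.27 and 0.49, since Pfkfb2 and Pdk4 then enter with values that carry no specific signal. With KHS101 at 5 uM 1 of 5 regulators was higher and 2 were lower (20% and 40%, against 6.16% and 8.10% of all genes). With retinoic acid and forskolin 2 were higher and 0 lower (40% and 0%, against 4.33% and 3.15%).

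Pfkfb3 makes fructose 2,6-bisphosphate, the strongest activator of phosphofructokinase. Its log2 values were 11.70, 10.67, 9.24 and 7.73. Every treated array was above DMSO, by 15.7-fold, 7.68-fold and 2.86-fold, and KHS101 at 5 uM was 2.05-fold above 1.7 uM. Its other probe set above the floor gave 7.84 and 6.34 with KHS101 and values at the floor on the remaining arrays; with all its probe sets averaged, floored ones included, its log2 difference went from 3.98 to 2.27 at 5 uM and from 2.94 to 1.43 at 1.7 uM, and it was no longer called with retinoic acid and forskolin (0.50). The median over its measured probe sets was 3.41 and 2.14 with KHS101. Pfkfb4, a relative of Pfkfb3, had 6.49, 6.61, 6.66 and 6.54, with no difference from DMSO over 1.09-fold.

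Txnip restrains glucose uptake and is itself switched on by glucose through MLXIP. It had 3.70 and 3.66 with KHS101, both under the floor, against 7.81 in DMSO and 8.78 in the retinoic acid array. It was at least 7.02-fold lower at both KHS101 concentrations, where the dose step is hidden by the floor, and 1.96-fold higher with retinoic acid and forskolin. No other gene of the list lost its signal at both concentrations. Pdk2, a kinase that inhibits pyruvate dehydrogenase, had 4.60, 5.98, 8.16 and 6.96. It was at least 3.89-fold lower at 5 uM, 1.97-fold lower at 1.7 uM, just short of a call, and 2.30-fold higher with retinoic acid and forskolin. The 4 arrays therefore lay in the order KHS101 5 uM, KHS101 1.7 uM, DMSO, retinoic acid. Its second probe set was above the floor only with retinoic acid and forskolin, at 5.96, and averaging them (-0.98 in log2) or a floor of log2 = 6 (-0.96) ended the Pdk2 call at 5 uM. Its relative Pdk1, the hypoxia-inducible kinase, had 8.94, 8.86, 8.09 and 8.58 and was not called, and its other probe set differed with the opposite sign in both KHS101 comparisons.

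Carriers differed less. Slc2a1, the main glucose carrier of dividing cells, had 8.22, 8.16, 7.87 and 7.81, and Slc2a3, the neuronal glucose carrier, 7.71, 7.90, 7.71 and 7.02. Both were above DMSO on each treated array and neither reached 2-fold, the other Slc2a3 probe set giving -0.02, 0.66 and 0.16 in log2. Slc16a1, which moves lactate and pyruvate across the membrane, had 12.57, 12.25, 10.90 and 11.32. It was 2.38-fold higher at 5 uM and 1.90-fold higher at 1.7 uM, and 1.34-fold lower with retinoic acid and forskolin.

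Gys1, the glycogen synthase outside liver, had 9.53, 9.34, 7.66 and 7.55. The KHS101 arrays stood 3.92-fold and 3.46-fold above DMSO, and the retinoic acid array 1.08-fold above it. Gbe1, the enzyme that branches glycogen, had 9.54, 9.53, 10.33 and 10.22, so that the 2 glycogen genes of the list differed in opposite directions, Gbe1 without a call (1.60-fold and 1.61-fold lower). Ak4, a mitochondrial adenylate kinase, had 9.32, 9.50, 10.87 and 7.91. It was higher on every treated array, by 2.65-fold, 3.01-fold and 7.78-fold, the last being the largest difference of the list in that comparison. Ak4, Epas1 and Slc16a1 each have another probe set that was at the floor on all arrays, and their calls at 5 uM are lost when probe sets are averaged (0.70, -0.82 and 0.62 in log2). So is that of Ak4 at 1.7 uM (0.80), and its difference with retinoic acid and forskolin goes from 2.96 to 1.48.

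Of the oxygen-sensing genes, Hif1a was nearly level, at 13.05, 13.09, 13.18 and 13.08. HIF-1 alpha is known to be controlled mainly by breakdown of the protein, which these arrays do not measure. Epas1 had 7.36, 8.50, 10.44 and 9.01. It was 3.13-fold lower at 5 uM, 1.42-fold lower at 1.7 uM and 2.70-fold higher with retinoic acid and forskolin, and KHS101 at 5 uM was 8.45-fold below the retinoic acid array. Egln1, the main HIF hydroxylase, had 9.50, 9.71, 9.86 and 10.04, and Egln2 9.46, 9.26, 9.66 and 9.62; neither passed 2-fold, and Egln1 was lowest with KHS101 at 5 uM. Egln3, itself a HIF target, was at the floor on all arrays.

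The hypoxia-inducible genes did not move together. Of 10 listed, 8 were measured at 5 uM, and 3 were higher, 1 lower and 4 neither (37.5% and 12.5%, against 6.16% and 8.10% of all genes). Their median was 0.78, beside 0.00 over all genes. At 1.7 uM 2 of 7 were higher and 0 lower (28.6% and 0%, against 4.36% and 4.27%; median 0.11). With retinoic acid and forskolin 0 of 8 were past 2-fold (against 4.33% and 3.15%; median 0.09).

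Vegfa, the vascular growth factor, had 11.02, 10.13, 6.62 and 7.40. The KHS101 arrays were far above DMSO, by 12.4-fold and 6.67-fold, and the retinoic acid array was 1.71-fold below it. The other Vegfa probe set had 8.76, 8.07, 3.42 and 5.24 and so gave the same order. Ddit4, an inhibitor of the growth kinase mTORC1, had 12.77, 12.33, 11.14 and 10.67, or 4.29-fold, 3.15-fold and 1.38-fold above DMSO. Adm, the peptide adrenomedullin, had 6.43, 4.96, 5.16 and 3.76. It was at least 2.70-fold higher at 5 uM and not measured at 1.7 uM, where both arrays were at the floor, and a floor of log2 = 6 (0.43) ended the call.

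Other members of the same group went the other way or stayed. Mxi1, an antagonist of MYC, had 9.25, 9.94, 10.43 and 10.39, 2.21-fold lower at 5 uM and 1.37-fold lower at 1.7 uM, and its other probe set differed by -1.16 and -0.42 in log2. The mitophagy receptors split: Bnip3 had 11.47, 10.93, 10.71 and 10.57 (1.86-fold higher at 5 uM), and Bnip3l 10.22, 10.35, 11.49 and 11.03 (1.75-fold lower). Neither passed 2-fold. Ankrd37 had 8.28, 7.03, 7.32 and 7.62, above DMSO at 5 uM and below it at 1.7 uM, a step of 2.37-fold between the concentrations. P4ha1, a collagen prolyl hydroxylase, had 10.81, 10.60, 10.44 and 10.48.

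**Figure D3:**
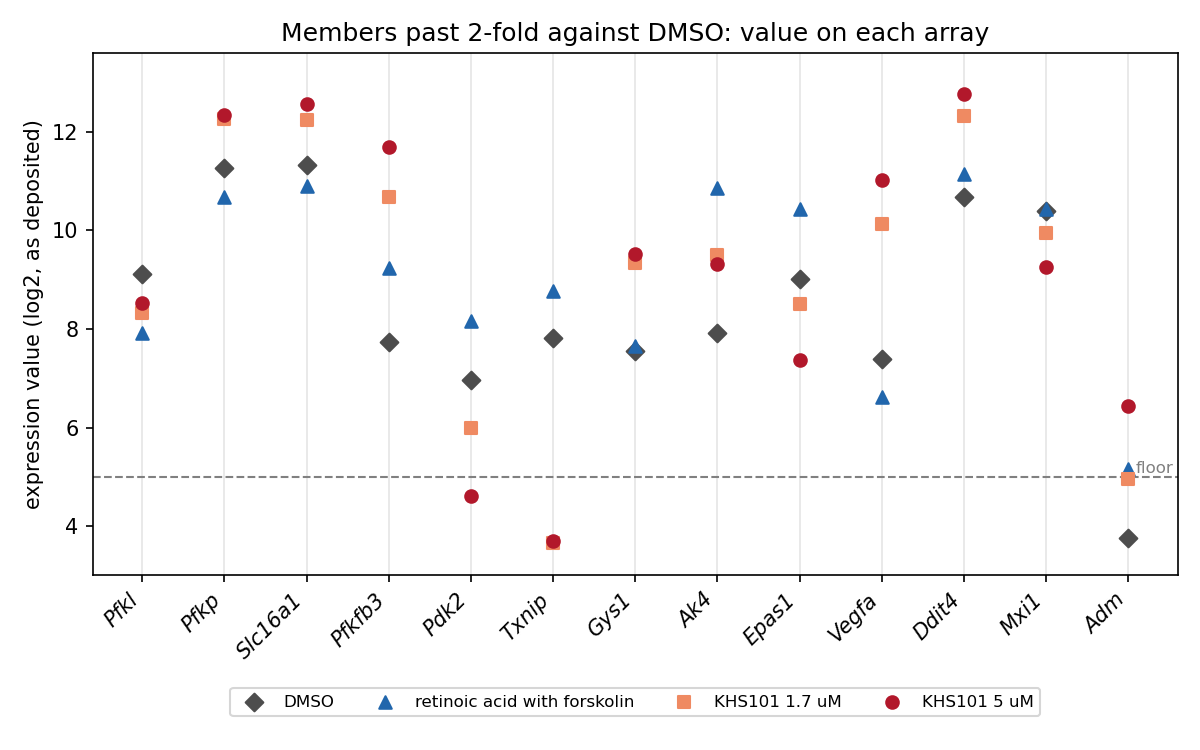
Deposited log2 expression value (vertical axis) on each of the 4 arrays for the 13 genes of the list that were past 2-fold against DMSO in at least 1 comparison; the dashed line is the floor at log2 = 5. In Pdk2 and Epas1 the retinoic acid array is highest and the KHS101 5 uM array lowest, and in Txnip both KHS101 arrays lie under the floor.

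The next question was whether the differences followed the concentration of KHS101. In a direct comparison of its arrays, 3 of 36 measured genes of the list were higher at 5 uM and 1 was lower (8.33% and 2.78%, against 0.812% and 1.73% of 8501 genes): Pfkfb3, Adm and Ankrd37 upward and Epas1 downward. The chain had 0 of 14 past 2-fold, with a median of -0.02. Pfkp, Slc16a1, Pfkfb3, Gys1, Vegfa and Ddit4 were further above DMSO at 5 uM than at 1.7 uM, and Pdk2, Epas1 and Mxi1 were further below it. These are 9 of the 11 genes called at 5 uM among the 35 measured in every comparison with DMSO. Picking genes by a call at 5 uM favours this count by itself, and the same count over all genes was not made. Ak4 was higher at 1.7 uM, and Txnip was at the floor at both. For Pfkp (1.06-fold) and Gys1 (1.14-fold) the step between the concentrations was small. Both comparisons use the same DMSO array.

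**Figure D4:**
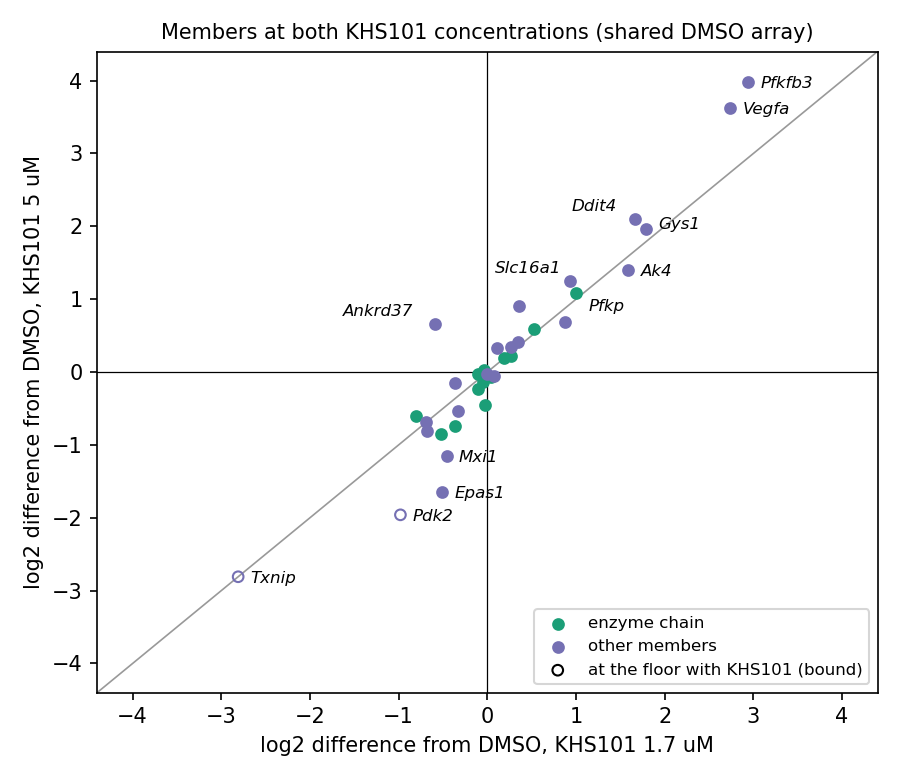
Log2 difference from DMSO at 1.7 uM (horizontal axis) and at 5 uM KHS101 (vertical axis) of the 35 genes of the list measured in both; the diagonal marks equal differences and open points are bounds. Both axes subtract the same DMSO array, which by itself pulls points toward the diagonal; Pfkfb3 and Vegfa lie above it and Epas1 and Pdk2 below it.

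KHS101 and retinoic acid with forskolin were then compared without the DMSO array. KHS101 at 5 uM had 7 genes of the list higher and 8 lower of 37 (18.9% and 21.6%, against 8.93% and 10.2% of 8607 genes), and KHS101 at 1.7 uM had 6 higher and 5 lower of 36 (16.7% and 13.9%, against 5.93% and 5.39% of 8589 genes). Vegfa was 21.2-fold and 11.4-fold higher with KHS101, Pfkfb3 5.51-fold and 2.69-fold, Gys1 3.64-fold and 3.21-fold, Pfkp 3.19-fold and 3.01-fold, Slc16a1 3.18-fold and 2.54-fold and Ddit4 3.11-fold and 2.28-fold. These 6 genes were the ones higher at both concentrations, and Adm was added at 5 uM (2.41-fold). Txnip was at least 13.7-fold lower at both concentrations, Pdk2 at least 8.93-fold and 4.51-fold, Epas1 8.45-fold and 3.85-fold, Ak4 2.94-fold and 2.58-fold and Bnip3l 2.42-fold and 2.21-fold. Pfkm (2.18-fold) and Ldhb (2.00-fold) of the chain and Mxi1 (2.27-fold) were lower at 5 uM and were not called at 1.7 uM. Against DMSO, Pdk2 and Epas1 were called in opposite directions by KHS101 at 5 uM and by retinoic acid with forskolin, and Pfkfb3 and Ak4 in the same direction.

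Genes of neighbouring pathways, from textbook lists, gave the following counts, to be read against 6.16% higher and 8.10% lower of all genes at 5 uM, 4.36% and 4.27% at 1.7 uM and 4.33% and 3.15% with retinoic acid and forskolin. In lists of 6 to 11 genes a single call lies at or above these shares. Of 6 measured further glycolytic isoenzymes, 1 was higher and 1 lower with KHS101 at 5 uM (Eno2 and Aldoc). The 8 measured genes of pyruvate dehydrogenase and pyruvate entry and the 8 of glycogen turnover had 0 calls in any comparison with DMSO. Of 8 pentose phosphate genes, Prps2 was lower by the same 2.07-fold in the 5 uM KHS101 and the retinoic acid arrays, with values of 9.39, 9.87, 9.39 and 10.44. Among 11 genes of the HIF machinery 2 were higher at 5 uM, both repressors that HIF induces: Bhlhe41 had 9.15, 8.78, 7.26 and 6.65 (5.65-fold and 4.38-fold higher with KHS101), and Bhlhe40 6.62, 5.86, 3.22 and 2.65 (at least 3.08-fold and 1.82-fold). With retinoic acid and forskolin Bhlhe41 was not called, and Bhlhe40 was not measured, since both arrays were under the floor.

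Among 17 further hypoxia-inducible genes measured at 5 uM, 4 were higher (23.5%, against 6.16% of all genes) and 1 was lower (5.88%, under the 8.10% of all genes). At 1.7 uM 4 of 16 were higher (25%, against 4.36%) and 0 lower. Ier3 was 3.32-fold and 2.34-fold higher, the lipoprotein receptor Vldlr 2.36-fold and 2.03-fold, Anxa2 2.22-fold and 2.25-fold and the creatine carrier Slc6a8 2.08-fold and 2.01-fold. Selenbp1 was 2.62-fold lower at 5 uM and 1.03-fold higher at 1.7 uM. Ndrg1, a widely used hypoxia marker, had 9.14, 9.72, 7.69 and 8.97, so it was not called with KHS101 and was 2.44-fold lower with retinoic acid and forskolin. In the glucose-sensing list Mlxip, the glucose-responsive factor upstream of Txnip, had 7.79, 7.22, 6.58 and 6.21, or 2.99-fold and 2.00-fold higher with KHS101, a direction opposite to that of Txnip. Myc was 3.12-fold lower and Mxd4 2.23-fold higher with retinoic acid and forskolin. Of the VEGF family, Vegfb was 2.24-fold higher at 5 uM, and the receptor Kdr was at the floor except with retinoic acid and forskolin, at 6.54.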

How the data were processed

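The authors deposited log2 expression values of 31099 probe sets on 4 Affymetrix arrays. Per the submitters' processing notes, the tools were GCRMA and R 2.6.2; the sources used here give no genome build. That the scale is log2 was read from the values (array medians between 3.67 and 3.76, maximum 16.14). Arrays brought to nearly 1 distribution cannot show a shift of all genes. The platform annotation gave 20832 probe sets 1 gene symbol, 436 several and 9831 none; those with several or none were left out. Control probe sets with 1 rat symbol were kept, since Gapdh had no others. Identifiers of the 43 listed genes matched the RefSeq gene table. A gene took its probe set with the highest mean; 11 of the listed genes had 2 or more measured probe sets against DMSO, which share the array and cover probe noise only.

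The 6 comparisons of single arrays used a floor of log2 = 5 and a 2-fold threshold, without a test. Members and lists were chosen with earlier results of these data known. Genes given in full were those past 2-fold against DMSO and the enzyme chain; other lists give up to 6 called genes each. The calling step was run on simulated arrays with known changes, made only in genes well above the floor and alike in all probe sets of a gene. That run did not cover bounds at the floor or probe sets that disagree. Python 3.11.15, numpy 2.4.6, pandas 2.3.3 and matplotlib 3.10.9 were used. Alternatives changed the floor, the probe set rule, the centring and the threshold.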

Additional observations from a re-analysis of the deposited data

How the results depend on the processing

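No paired analysis was possible because each group is 1 array, and no array could be left out. The number of listed genes called depended on the fold chosen. At 1.5-fold it was 21 of 37 for KHS101 at 5 uM against DMSO (12 higher and 9 lower, against 14.6% and 16% of all genes). For KHS101 at 1.7 uM it was 14 of 35 (8 and 6, against 10.5% and 10.6%). With retinoic acid and forskolin it was 9 of 36 (6 and 3, against 11.3% and 12.2%). Between the KHS101 concentrations it was 7 of 36 (4 and 3, against 3.62% and 6.27%). At 3-fold it was 7 for KHS101 at 5 uM (4 higher and 3 lower, against 2.55% and 3.51% of all genes). At 1.7 uM it was 6 (5 and 1, against 1.71% and 0.797%). For retinoic acid with forskolin it was 1 (1 and 0, against 1.57% and 0.398%). Between the concentrations it was 0 (against 0.141% and 0.2%). Against retinoic acid with forskolin it was 9 of 37 for KHS101 at 5 uM (6 and 3, against 3.53% and 4.18%). There it was 6 of 36 at 1.7 uM (3 and 3, against 1.97% and 1.76%). With the mean of all probe sets of a gene, floored ones included, it was 3 of 36 for retinoic acid with forskolin. These were 2 higher and 1 lower, against 3.42% and 2.92% of all genes. Between the concentrations it was 2 of 36 (2 and 0, against 0.671% and 1.36%). For KHS101 at 1.7 uM against retinoic acid with forskolin it was 7 of 36 (4 and 3, against 4.96% and 4.34%). The median difference of the regulators with retinoic acid and forskolin went from 0.97 to 0.50 with that mean and to 0.24 without a floor, where 7 regulators enter in place of 5. The medians of the enzyme chain kept within the spread between probe sets under every alternative.

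None of the listed genes called against DMSO reversed. Under the mean of probe sets 7 calls of single genes were lost: Slc16a1 (0.62), Pdk2 (-0.98), Ak4 (0.70) and Epas1 (-0.82) at 5 uM, Ak4 (0.80) at 1.7 uM, and Pfkfb3 (0.50) and Epas1 (0.72) with retinoic acid and forskolin. A floor of log2 = 6 ended those of Pdk2 (-0.96) and Adm (0.43) at 5 uM. A floor of log2 = 4 added Hk2 at 5 uM (1.5) and Adm with retinoic acid and forskolin (1.16). Centring each array shifted none of them past the threshold, with shifts between -0.014 and -0.001 against DMSO.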
